A study of Mus musculus with 8 samples.

Results

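The cells described here were immature neutrophils of the mouse heart, marked by transcripts of the secondary granules. A barcode was taken as a member when it held at least 20 UMIs of S100a8 and S100a9 together, at least 10 UMIs of Ltf, Camp and Ngp together and no UMI of Cd79a or Cd3e. It also had to hold 200 to 6000 genes and 500 to 30000 UMIs, with less than 15% of them mitochondrial. A UMI (unique molecular identifier) counts a captured transcript once. By this rule 233 of 27053 kept cells were members, out of 32473 barcodes in 4 single-cell libraries. The sham library held 10 of them, TAC-2w 9, TAC-4w 186 and TAC-6w 28, so that 79.8% came from the TAC-4w library. Mature neutrophils of the same libraries were used for comparison. These met the same minimum of S100a8 and S100a9 UMIs and held no Cd79a or Cd3e, with fewer than 10 UMIs of the granule genes and at least 3 UMIs of Csf3r, Cxcr2, Il1r2 and Retnlg together. They numbered 144 in sham, 66 in TAC-2w, 1015 in TAC-4w and 162 in TAC-6w, and values are given in this order of libraries throughout. Another 3 barcodes rich in S100a8 and S100a9 fell in neither class. Of the 233 members 227 also held at least 3 UMIs of Csf3r, Cxcr2, Il1r2 and Retnlg together. It was therefore the granule UMIs that set the classes apart.

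The hearts came from wild type male C57BL/6J mice that were 8 weeks old at the time of surgery. Pressure overload was produced by transverse aortic constriction (TAC), a ligature that narrows the aortic arch, and hearts were taken 2, 4 or 6 weeks later. Sham mice had the same operation without the ligature, and their time of collection was not labelled. Each condition had 1 droplet-based single-cell library and 1 spatial section, and how many mice a library held was not stated. The libraries of sham and TAC-6w carried the label of batch 3, TAC-2w that of batch 1 and TAC-4w that of batch 2. The labels describe isolated nuclei, whereas the study's methods describe dissociated cells. With 1 library per condition no difference between conditions could be tested. Intervals beside the values are 95% intervals that cover counting error only.

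Neutrophils are made in the bone marrow, where granule proteins appear in a fixed order. Primary granule enzymes such as myeloperoxidase and elastase are transcribed in promyelocytes, secondary granule proteins in myelocytes and metamyelocytes, and gelatinase granule proteins in band cells. Division stops at the myelocyte stage. Circulating neutrophils carry the finished granule proteins but have lost most of these transcripts, and instead transcribe cytokine and chemokine genes once they are activated. Ltf encodes lactoferrin, an iron-binding protein. Camp encodes the precursor of the antimicrobial peptide cathelicidin, and Ngp encodes neutrophilic granule protein. S100a8 and S100a9 encode the subunits of calprotectin and are abundant in neutrophils of every stage.

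The 3 granule genes lie on mouse chromosome 9. Start sites of Camp and Ngp are 570.4 kb apart and those of Ngp and Ltf 599 kb apart. C/EBPε, the transcription factor of the myelocyte stage, binds sites of the C/EBP type, so the 250 bases before each start were searched for TTGCNNAA on both strands. Lcn2, the secondary granule gene for lipocalin 2, is shown with the 3 marker genes because it was measured in the same cells and not used to choose them. The sequences are those of RefSeq on GRCm38.p6 and run 5′ to 3′ on the strand of the gene, with matches in capitals. They are chr9:111019042-111019291 (+ strand) for Ltf, chr9:109849457-109849706 (- strand) for Camp, chr9:110419558-110419807 (+ strand) for Ngp and chr2:32387740-32387989 (- strand) for Lcn2.
Ltf: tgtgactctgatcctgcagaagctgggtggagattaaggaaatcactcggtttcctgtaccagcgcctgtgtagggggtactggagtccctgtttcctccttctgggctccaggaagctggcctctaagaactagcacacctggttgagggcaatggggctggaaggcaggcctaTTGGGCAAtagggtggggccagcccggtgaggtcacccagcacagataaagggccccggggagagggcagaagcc
Camp: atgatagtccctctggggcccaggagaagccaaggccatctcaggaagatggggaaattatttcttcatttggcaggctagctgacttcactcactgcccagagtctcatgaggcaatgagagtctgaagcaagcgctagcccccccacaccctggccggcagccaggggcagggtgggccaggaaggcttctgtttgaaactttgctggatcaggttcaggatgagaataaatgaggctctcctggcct
Ngp: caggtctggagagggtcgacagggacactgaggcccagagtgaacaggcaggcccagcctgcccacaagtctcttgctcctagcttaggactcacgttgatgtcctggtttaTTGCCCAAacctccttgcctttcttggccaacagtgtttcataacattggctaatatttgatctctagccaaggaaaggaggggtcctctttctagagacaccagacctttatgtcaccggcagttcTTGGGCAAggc
Lcn2: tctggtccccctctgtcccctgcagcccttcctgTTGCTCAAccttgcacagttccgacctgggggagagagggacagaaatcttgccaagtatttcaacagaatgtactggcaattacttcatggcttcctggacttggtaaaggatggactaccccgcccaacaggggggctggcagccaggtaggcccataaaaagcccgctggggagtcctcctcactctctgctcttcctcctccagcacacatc
Ltf held 1 match, 75 bases before the start, Ngp held 2, at 138 and 11 bases, and Lcn2 held 1, at 216 bases. These letters were not found in the Camp window. A match was present before 10.8% of 27025 genes. It was present in 3 of the 5 genes of the rule and in 4 of the 8 genes of the secondary granule list that had a sequence. Those 8 included Olfm4 and Ptx3, which were not tested below, and lacked Hp and Orm1, which were. Ptx3 was among the 4 and was not detected in members. A match describes the letters only and does not show that a factor is bound.

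The TAC-4w library stood apart from the other 3. Among cells that were neither members nor mature neutrophils, 75.2% of TAC-4w cells held a UMI of S100a8 or S100a9, against 6.18% in sham, 6.21% in TAC-2w and 6.35% in TAC-6w. For Ltf, Camp or Ngp the share of these other cells with a UMI was 17% in TAC-4w and 1.16%, 1.51% and 1.69% in sham, TAC-2w and TAC-6w. The median depths of these cells were 9331, 10898.5, 4643 and 4903 UMIs. Of mature neutrophils 22.6% held such a UMI in TAC-4w and 4.86%, 6.06% and 6.17% in the other libraries. Members held a median of 754, 196, 385 and 434.5 granule UMIs. The lowest member in each library had 20, 18, 11 and 11 such UMIs, and the highest comparison neutrophil had 9, 6, 9 and 7. In all, 16 members lay between 10 and 19 UMIs and 30 neutrophils between 5 and 9.

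Members were deeper than mature neutrophils, with a median of 12929, 7519, 10788.5 and 5575.5 UMIs against 2513, 3045, 3256 and 1444. When every cell was drawn down to 1000 UMIs, members held fewer distinct genes, with medians of 403, 392, 366 and 355 against 457, 466.5, 433 and 443 (9 TAC-4w and 18 TAC-6w mature neutrophils were shallower and left out). Doublet scoring by Scrublet placed 4 members among the highest scores, all from TAC-4w. Some barcodes also held many transcripts of another cell type. At least 50 UMIs of fibroblast markers or of C1qa, C1qb and C1qc, the complement genes of macrophages, were found in 4 of the 10 sham members, in none of TAC-2w, in 1 of TAC-4w and in 2 of TAC-6w. These 7 are called mixed barcodes, and the shares and the main ratios to sham are given with and without them. Pairs of libraries shared 9 to 30 barcode sequences, and no barcode was a member in 2 libraries.

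Immature neutrophils were rare in the sham and TAC-2w libraries and most frequent at 4 weeks. They made up 0.122% of kept cells in sham (0.0583 to 0.223), 0.138% in TAC-2w (0.0633 to 0.263), 2.76% in TAC-4w (2.38 to 3.18) and 0.502% in TAC-6w (0.334 to 0.725), by exact Clopper-Pearson intervals. The TAC-4w share was 22.7 times that of sham (12.1 to 48.1) and 5.49 times that of TAC-6w (3.68 to 8.49). TAC-6w, which carried the same batch label as sham, was at 4.13 times the sham share (1.95 to 9.53), whereas the TAC-2w ratio of 1.14 (0.410 to 3.12) included 1. Without mixed barcodes 6 sham members were left, and the ratios to sham were 37.6 (17 to 104) for TAC-4w, 6.39 (2.57 to 19) for TAC-6w and 1.90 (0.603 to 6.48) for TAC-2w. Batch and condition cannot be told apart for TAC-2w and TAC-4w. Mature neutrophils were also most frequent in TAC-4w, at 1.75%, 1.02%, 15.0% and 2.90% of kept cells, with TAC-4w at 8.60 times sham (7.21 to 10.3) and TAC-6w at 1.66 times (1.32 to 2.09).

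Within neutrophils the immature share was lowest in sham. It was 6.49% (10 of 154 cells, 3.16 to 11.6) in sham, 12.0% (9 of 75, 5.64 to 21.6) in TAC-2w, 15.5% (186 of 1201, 13.5 to 17.7) in TAC-4w and 14.7% (28 of 190, 10.0 to 20.6) in TAC-6w. The ratio to sham was 2.39 (1.27 to 5.06) for TAC-4w and 2.27 (1.07 to 5.24) for TAC-6w. TAC-2w, at 1.85 (0.664 to 5.06), did not differ from sham beyond counting error. TAC-4w and TAC-6w were at a ratio of 1.05 (0.704 to 1.62), so the larger number of immature cells at 4 weeks went with a larger number of neutrophils of both classes. Without mixed barcodes the sham share was 4.20% (1.56 to 8.91), and the ratios of TAC-2w, TAC-4w and TAC-6w were 3.06 (0.974 to 10.5), 3.69 (1.66 to 10.2) and 3.56 (1.43 to 10.6).

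**Figure D1:**
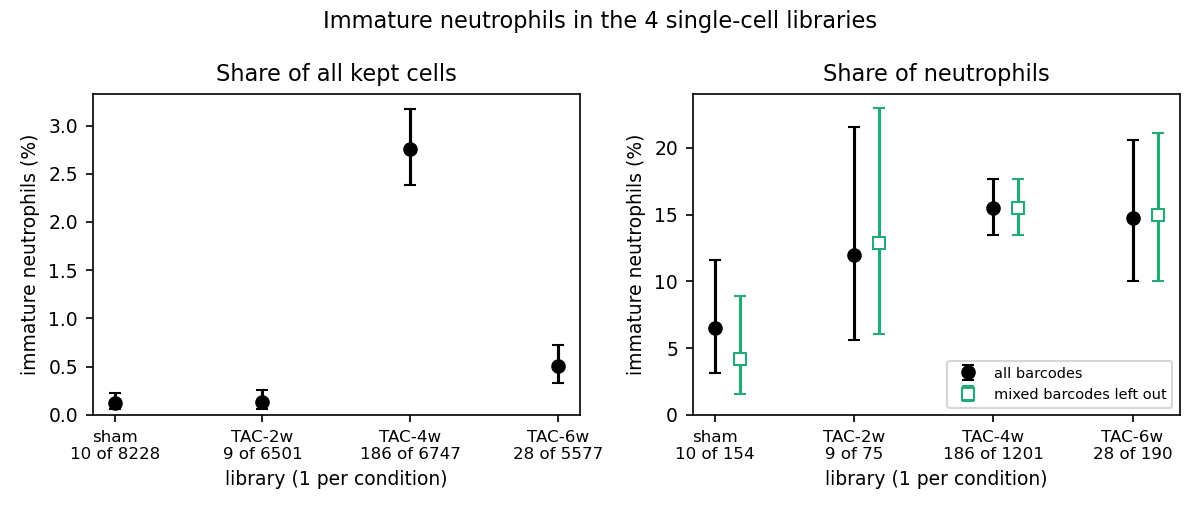
Immature neutrophils as a percentage of all kept cells (left) and of immature plus mature neutrophils (right) in the 4 libraries, with exact 95% intervals; open squares leave mixed barcodes out. TAC-4w stands at 2.76% of kept cells, whereas within neutrophils TAC-4w (15.5%) and TAC-6w (14.7%) are level.

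Members were chosen by the UMIs of S100a8, S100a9, Ltf, Camp and Ngp in these same cells, so the values of these 5 genes are given as a description. In CPM, the counts of a gene scaled to a fixed total of 1000000 UMIs summed over a class in a library, Ltf was at 6113, 8668, 6290.5 and 9566 in members and 2.08, 0, 9.88 and 6.06 in mature neutrophils. Camp was at 30359, 37035, 24811 and 35548 CPM and Ngp at 28684, 29867, 28903 and 42949 CPM in members. The highest library was at 1.56, 1.49 and 1.50 times the lowest for Ltf, Camp and Ngp. These values include mixed barcodes, with sham the lowest library for Ltf. Without mixed barcodes sham was the highest library for Ltf and for Camp. S100a8 was at 89377, 137740, 137543 and 122277 CPM in members and 33149, 32012, 53575 and 31428 CPM in mature neutrophils. The 5 genes together took 28.6%, 40.1%, 37.4% and 41.8% of all UMIs of the members, and 41.2% in sham once mixed barcodes were left out.

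Single cells varied far more than libraries. In TAC-4w members Ngp took from 0.0522% to 7.87% of a cell's UMIs, with a median of 2.05%. The medians of Ngp were 2.64, 1.38, 2.05 and 4.59% in the 4 libraries, those of Camp 2.93, 0.989, 0.977 and 2.93% and those of Ltf 0.367, 0.285, 0.429 and 0.957%. Every member held Ngp, whereas 34 of the 186 TAC-4w members held no Ltf and 9 no Camp. With each TAC-4w cell drawn down to 1000 UMIs, Spearman's rho over the 186 members, which share a library, was 0.87 for Camp and Ngp and 0.83 for Ltf and Ngp. Ngp and Retnlg ran in opposite directions, at -0.74. Over the 28 TAC-6w members the same values were 0.59, 0.56 and -0.58. For Ltf and Camp rho was 0.81 in TAC-4w but only 0.22 in TAC-6w.

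**Figure D2:**
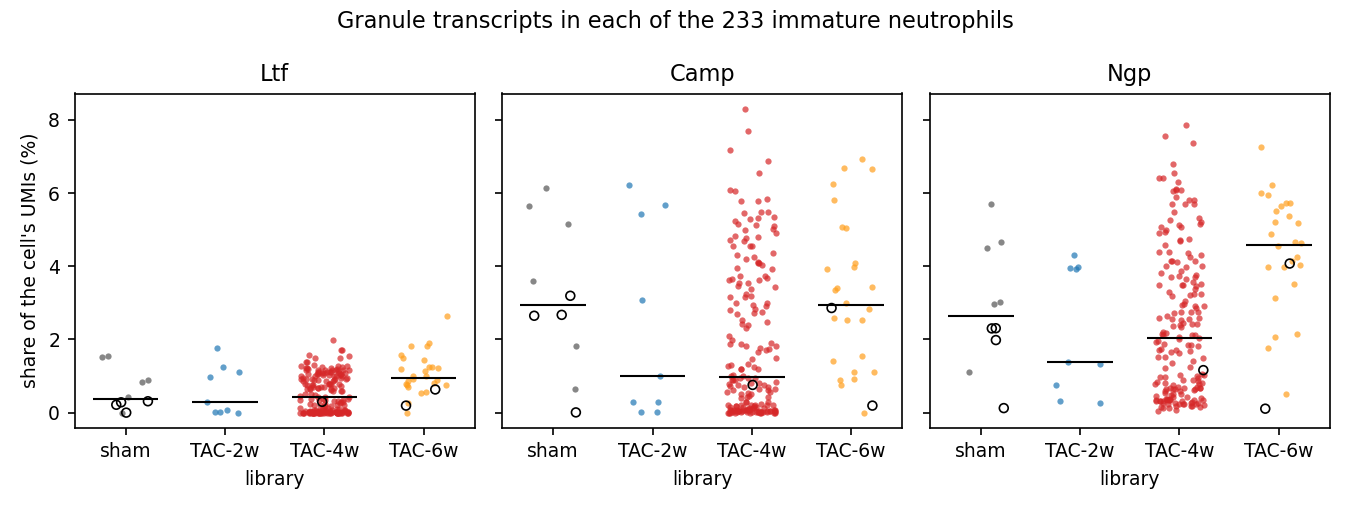
Share of each member's UMIs (%) taken by Ltf, Camp and Ngp, 1 point per cell by library; lines are medians and open circles are mixed barcodes. Within TAC-4w the cells spread from 0.0522% to 7.87% of UMIs in Ngp.

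A subset of members carried transcripts of earlier stages. Fcnb, which encodes ficolin B, a lectin of immature myeloid cells, was detected in 6 of 10 sham members, 3 of 9 TAC-2w members, 35 of 186 TAC-4w members and 5 of 28 TAC-6w members. It was detected in 2 of 1015 TAC-4w mature neutrophils and in none of the mature neutrophils of the other libraries. All 49 cells with Fcnb were among the 151 members with 200 or more granule UMIs, and none was among the 82 members below that. Granule UMIs and detection both grow with depth.

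The same cells held the dividing ones. Mki67 and Top2a, which are transcribed in cycling cells, were both detected in 4 members of sham, 1 of TAC-2w, 10 of TAC-4w and 0 of TAC-6w (without mixed barcodes 1, 1, 10 and 0), and in 1 of all 1387 mature neutrophils. All 15 of these members held Fcnb, against 34 of the other 218 (15.6%). The cycling members of TAC-4w were deeper, with a median of 21934 UMIs against 10477.5. With the 217 members of at least 5000 UMIs drawn down to 5000, 10 still held both cycling genes. Of those 10, 9 also held Fcnb, compared with 38 of the 217. The count of 0 among 28 members in TAC-6w, which were shallower, allows a share of up to 10.7% of cells with both genes detected.

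Primary granule transcripts were counted next. At least 1 UMI of Mpo, Elane, Prtn3, Ctsg, Ms4a3, Prss57 or Bpi was present in 5, 2, 32 and 5 members, and in 2 of the 6 sham members without mixed barcodes. Summed over these genes, which encode or accompany the enzymes of the earliest granules, the level was 198.6, 57.3, 197 and 46.8 CPM in members and 2.08, 7.12, 7.35 and 6.06 CPM in mature neutrophils. In TAC-4w the 5 cells with the most held 89.1% of the 440 UMIs. Elane, for neutrophil elastase, had 153 UMIs in TAC-4w members, 2 in sham and none in TAC-2w or TAC-6w. A single TAC-4w cell held 134 of them, so this contrast rested largely on that cell.

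Members and mature neutrophils were then compared over all genes with edgeR's quasi-likelihood test on UMI counts summed per library and class. The library was a block, so that each library was its own control. Of 2896 genes tested, 835 passed an adjusted p of 0.05 (28.8%), of which 294 were higher in members (10.2%) and 541 lower (18.7%). The genes of the rule were not counted. A gene was tested when at least 4 of the 8 sums reached 32.7 CPM. Of the genes tested, 59 reached it in no mature sum and 119 in no member sum, so they were tested through the class in which they were high, and 58 and 99 of them were called. Values of such genes are given as a description, without a p. Among the 2718 genes that reached it in both classes 236 were higher (8.68%) and 442 lower (16.3%). The 5 rule genes take up 28.6% to 41.8% of the members' UMIs, which lowers the CPM of all others. With them removed from counts and totals the log2 fold changes moved up by 0.20 in the median, and 492 of 3253 genes were higher and 432 lower. The higher genes then made up 53.2% of the calls in place of 35.2%. All 294 higher genes were among the 492, and 424 of the 541 lower genes were still lower. With mixed barcodes left out, the higher genes made up 46.7% of the calls.

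Genes of the secondary granules were next. Of the 10 on the list beside Ltf, Camp and Ngp, 8 were tested. Fcnb and Orm1, with 2 mature UMIs each, reached the minimum in members only. The other 6 were all higher (background 10.2% over all genes tested and 8.68% over those at the minimum in both classes), and their median log2 fold change was 2.69, against -0.17 over the genes at the minimum in both classes. Olfm4 and Ptx3 had too few counts. Lcn2, for lipocalin 2, which withholds iron from bacteria, was at 13746, 16668, 16002 and 18154 CPM in members and 1295, 1243, 2228 and 1661 CPM in mature neutrophils. All 4 member values were far above the mature ones, with a log2 fold change of 3.62 ± 0.26 (SE), adjusted p = 0.000138. Chil3, for a chitinase-like protein of myeloid cells, was at 7279, 7235, 4638 and 3715 CPM against 35.4, 78.3, 108 and 18.2 CPM. It rose by 6.91 ± 0.49 (SE) on the log2 scale (adjusted p = 0.000128). Cd177, for a neutrophil surface glycoprotein, was at 518, 1080.0, 809.5 and 1129 CPM against 29.2, 57.0, 36.2 and 42.4 CPM, again with no overlap, and rose by 4.65 ± 0.25 (SE) on the log2 scale (adjusted p = 3.09e-05).

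Fcnb and Orm1 had the largest fold changes outside the rule. Fcnb was at 509, 124, 209 and 316 CPM in members, and the mature neutrophils of all libraries together held 2 UMIs. The ratio of summed counts was 569 (157 to 4706). Orm1, for the acute phase protein orosomucoid, was at 225, 76.5, 219.5 and 257 CPM against 2 mature UMIs, a ratio of 546 (150.3 to 4515). Pglyrp1, for a peptidoglycan-binding protein, rose by 1.77 and Hp, for haptoglobin, by 0.68 on the log2 scale. The call of Hp was lost without any 1 of the TAC libraries, without the block, without a filter on low counts, with the highest doublet scores removed and with cells drawn down to 1000 UMIs.

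The last gene of the secondary granule list, Mmp8, for neutrophil collagenase, was at 587, 2045, 2334 and 1264 CPM in members and 529, 587, 649.7 and 333 CPM in mature neutrophils. With mixed barcodes included, the sham member value lay within the mature range, and the other 3 lay above it. Without mixed barcodes the sham members stood above every mature value given here. The log2 fold change of Mmp8 was 1.72 ± 0.35 (SE), adjusted p = 0.00873, and 1.89 with mixed barcodes left out. Its call was lost without the TAC-2w or the TAC-4w library. Mmp9, for gelatinase B, was at 458, 1233, 1411 and 1240.3 CPM against 479, 538, 727 and 755 CPM. With mixed barcodes included, sham was again the exception (log2 fold change 0.97 ± 0.26 (SE), adjusted p = 0.0269). This call too was lost without any 1 of the TAC libraries, without the block and with the highest doublet scores removed. Of the 5 gelatinase granule genes, to which Mmp9 belongs, Mmp9 was called higher (background 10.2%, or 8.68% at the minimum in both classes). Mmp25, which reached the minimum in members only, had a log2 fold change of 3.56. Slc11a1, for a metal transporter of phagosomes, was lower at -1.78 (background 18.7%, or 16.3% at the minimum in both classes). Adam8 and Cfp did not pass.

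The NADPH oxidase, the enzyme that makes superoxide in the phagosome, was represented by 5 genes that were higher in members. Cybb, for its membrane subunit gp91phox, was at 751, 1166, 887 and 837 CPM in members and 131, 228, 76.5 and 12.1 CPM in mature neutrophils. The lowest member value was 3.30 times the highest mature value, and the log2 fold change was 3.56 ± 0.54 (SE), adjusted p = 0.00237. The partner subunit Cyba rose by 1.13, the cytosolic subunits Ncf1 and Ncf4 by 1.40 and 1.30, and the GTPase Rac2 by 0.79. Without the TAC-4w library 3 of these 5 genes were called, Ncf1 and Rac2 no longer among them. Rac2 was also lost without TAC-2w or TAC-6w, without the block, without a filter on low counts and with the highest doublet scores removed.

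Of 8 transcription factors of granulopoiesis 5 were tested. Cebpe reached the minimum in members only. Of the other 4 genes 3 fell, or 2 when the rule genes were left out of the totals. The background was 18.7% over all genes tested and 16.3% over those at the minimum in both classes. Cebpe, for C/EBPε, was at 259, 143, 149 and 152 CPM in members and 4.16, 3.56, 5.07 and 3.03 CPM in mature neutrophils. The lowest member value was 28.3 times the highest mature one, with a log2 fold change of 5.37, given as a description. Cebpb, for the C/EBP factor of emergency granulopoiesis, was at 1649, 1787, 2564 and 1855 CPM against 5258, 6188, 6546 and 5984 CPM and fell by 1.37 on the log2 scale. Runx1 fell by 1.51, a call that was lost without the TAC-4w library. Spi1, for PU.1, fell by 0.62, and that call was lost without any 1 library, by DESeq2, without the block, when thinned and when the rule genes were left out of the totals. Cebpd did not pass, at a log2 fold change of 0.44. Cebpa, Gfi1 and Irf8, which act earlier, had too few counts to be tested.

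Of the 23 genes of the cell cycle list only 5 had enough counts for the test, and 3 were higher (background 10.2%). Stmn1, for the microtubule protein stathmin, was at 276, 115, 55.1 and 35.1 CPM in members and 35.4, 7.12, 10.1 and 15.2 CPM in mature neutrophils. Its member level was highest in sham and lowest in TAC-6w, where it lay within the mature range, and the log2 fold change was 2.82 ± 0.37 (SE), adjusted p = 0.00155. Without mixed barcodes sham stood at 57.5 CPM, TAC-2w was the highest, and Stmn1 had too few counts for the test, as it had when thinned or without the TAC-4w library. Hmgb2, for a chromatin protein of dividing cells, rose by 1.06 and Tuba1b, for α-tubulin, by 1.15. The call of Tuba1b was lost without TAC-2w or TAC-4w and without the block, and that of Hmgb2 with cells drawn down to 1000 UMIs.

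Surface molecules that guide neutrophils between marrow, blood and tissue went both ways. Cxcr4, the receptor for CXCL12 that holds neutrophils in the marrow and returns aged ones to it, was at 43.2, 268, 149 and 146 CPM in members and 835, 630.2, 909.5 and 1152 CPM in mature neutrophils. All member values were below all mature ones (log2 fold change -2.38 ± 0.43 (SE), adjusted p = 0.00456). Selplg, for the adhesion protein PSGL-1, fell by 1.94, the integrin gene Itga4 by 1.55 and the chemokine receptor gene Ccr1 by 2.27. The call of Itga4 was lost without the block and with cells drawn down to 1000 UMIs. C5ar1, for the C5a receptor, fell by 0.73, a call that was lost without any 1 library, by DESeq2, without the block, when thinned and without the rule genes in the totals. Itgam, for CD11b, was at 423, 631, 571 and 439 CPM against 260.3, 263, 264 and 103 CPM and rose by 1.51, which was not called without TAC-4w. Ltb4r1, for the leukotriene B4 receptor, rose by 3.2. Fpr2 and Itgb2 were called higher once the rule genes were left out. The receptor genes that chose the mature cells are described only. Csf3r was at 60.4, 191, 199.8 and 99.5 CPM in members against 1214, 1307, 1249.7 and 1258 CPM, whereas Retnlg was higher in members, at 9636, 23998, 25239.9 and 19588 against 8949, 9798, 12194 and 9483 CPM.

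Inflammatory genes were lower in members. Of the 12 on the list, Il1a reached the minimum in mature neutrophils only. Of the other 11 genes 10 fell, with a median log2 fold change of -2.78 over the 11. The background was 18.7% over all genes tested and 16.3% over those at the minimum in both classes. Il1b, for interleukin 1β, was at 43.2, 965, 1764 and 169.7 CPM in members and 8766, 5799.9, 14666 and 5575 CPM in mature neutrophils. The highest member value, in TAC-4w, was below the lowest mature value, and the log2 fold change was -3.94 ± 0.73 (SE), adjusted p = 0.00555. Cxcl2, for a chemokine that attracts neutrophils, was at 432, 1749, 3049.6 and 936 CPM against 17843, 16342, 23601 and 19226 CPM, again without overlap (log2 fold change -3.67 ± 0.43 (SE), adjusted p = 0.000912). Il1a was at 0, 9.56, 2.69 and 0 CPM against 35.4, 35.6, 59.5 and 51.5 CPM, a log2 fold change of -4.15.

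The other members of the list fell by less. On the log2 scale Nlrp3, for an inflammasome sensor, fell by 3.49, Acod1, for the enzyme that makes itaconate, by 3.15, and Ptgs2, for cyclooxygenase 2, by 2.88. The chemokine genes Ccl3 and Ccl4 fell by 2.78 and 2.38, Il1rn, for the interleukin 1 receptor antagonist, by 2.48, and the NF-κB inhibitor gene Tnfaip3 by 1.84. Tnf fell by 1.20, and this call was lost without any 1 of the TAC libraries, by DESeq2, when thinned and without the rule genes in the totals. Osm, for oncostatin M, did not pass, at 268, 564, 840.5 and 737 CPM against 529, 456, 767 and 252 CPM. Of 7 tested interferon response genes 3 fell (background 18.7%), among them Isg15 by 2.76. Of 10 immediate early and heat shock genes 6 fell (background 18.7%), among them Dusp1 by 2.90, Atf3 by 2.97 and Egr1 by 2.14. The sixth, Zfp36, at -0.81, was not called by DESeq2, without the block, when thinned, without any 1 of sham, TAC-2w and TAC-4w, or without the rule genes in the totals, where 5 fell.

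Beyond these lists, the genes with the largest fold changes included several of unlike function. Of the higher ones described next, Adpgk alone reached the minimum in both classes. Serpinb1a, for an inhibitor of neutrophil serine proteases, was at 354, 526, 518 and 351 CPM in members and 8.33, 7.12, 11.4 and 12.1 CPM in mature neutrophils. Its log2 fold change was 5.66. Itgb2l, for an integrin β2-like chain, was at 190.0, 306, 226 and 211 CPM against 4.16, 3.56, 6.33 and 3.03 CPM, a log2 fold change of 5.64. Both genes were above every mature value in each library. Log2 fold changes were 4.97 for Zmpste24, the gene of the protease that processes prelamin A, 4.74 for both Adpgk, for the ADP-dependent glucokinase, and Mgst2, for a microsomal glutathione transferase, and 5.69 for the ABC transporter gene Abca13. Ldhc, for a lactate dehydrogenase subunit known from testis, had 179 UMIs in members and 2 in mature neutrophils, a ratio of 172 (46.9 to 1430). The transcript 4930438A08Rik had 109 UMIs in members and none in mature neutrophils, which made it at least 69.8-fold higher at a floor of 3 counts over the group.

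Among the lowest genes, Wfdc17, for a small secreted protein of myeloid cells, was at 34.5, 19.1, 189 and 5.85 CPM in members and 1029, 2207, 2202 and 1228 CPM in mature neutrophils. Even the TAC-4w member value, the highest, was below every mature value (log2 fold change -4.74 ± 0.53 (SE), adjusted p = 0.000752). Ccl2, for a chemokine that attracts monocytes, was not detected in 3 of the 4 member sums and at 129, 35.6, 32.9 and 66.7 CPM in mature neutrophils. Its log2 fold change was -3.73. Fgl2, Lsmem1, Sirpb1c, Arl4c, Gm5150 and AW011738 had log2 fold changes of -3.69 to -3.98. Ccl2 and these genes other than Fgl2 reached the minimum in mature neutrophils only.

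Transcripts of other cells moved with some of these differences. Haemoglobin genes, which neutrophils do not transcribe, were lower in members: the 5 red blood cell markers summed to 475, 86.0, 368 and 29.3 CPM in members and 12310, 335, 6211 and 239 CPM in mature neutrophils. Hba-a1 fell by 4.26 and Hbb-bs by 3.91, so 2 of the 12 genes named as lowest were of this kind. Hbb-bs was the most abundant of them in sham members. Fibroblast markers summed to 11838, 459, 302 and 1959.9 CPM in members and 5081, 6227, 807 and 8246 CPM in mature neutrophils, with Gsn the most abundant in sham. With mixed barcodes left out of both classes the sums were 402, 459, 300.2 and 399 CPM in members and 843, 616, 265 and 573 CPM in mature neutrophils, so the classes lay closer together and TAC-4w members were above the mature cells. Macrophage markers summed to 699, 57.3, 95 and 29.3 CPM in members, with C1qa the most abundant in sham, against 1337, 2652.5, 131 and 767 CPM in mature neutrophils. Without mixed barcodes they summed to 57.5, 57.3, 16.7 and 32.7 CPM in members and 285, 426, 92.5 and 165 CPM in mature neutrophils. T cell markers were at 0, 19.1, 15.7 and 11.7 CPM and B cell markers at 43.2, 38.2, 88.3 and 29.3 CPM, with Cd79a and Cd3e at 0 by the rule. Of the monocyte markers, Ly6c2 was higher in members, at 665, 831, 989 and 913 CPM against 198, 142, 197 and 112 CPM (log2 fold change 2.65 ± 0.29 (SE), adjusted p = 0.000721), while F13a1 and Ms4a6c fell. Pf4 of platelets and Fabp4 of endothelial cells also fell, and Csf1r of macrophages, at the minimum in mature neutrophils only, had a log2 fold change of -2.81, the calls of F13a1 and Fabp4 being lost without TAC-4w and that of F13a1 also without TAC-2w. Without the block F13a1, Ms4a6c and Fabp4 were not called, and Fabp4 was also not called with cells drawn down to 1000 UMIs. The part of these transcripts in the differences above was not tested.

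**Figure D3:**
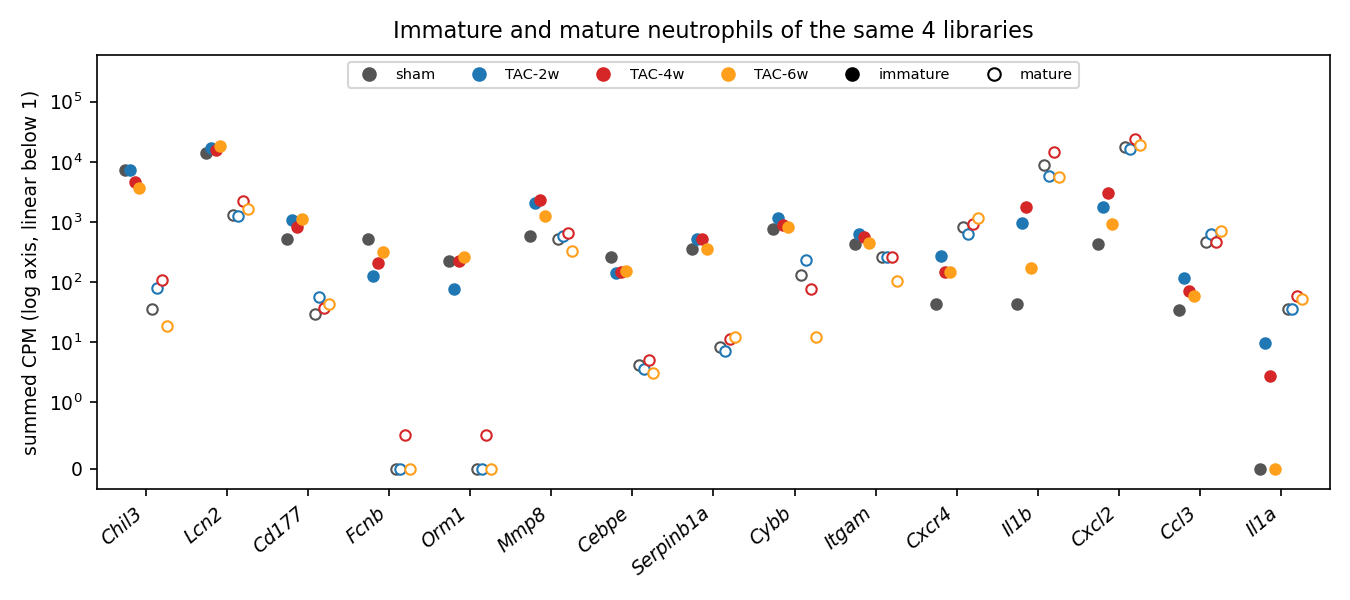
Summed CPM (log axis, linear below 1) of 15 genes in immature (filled) and mature (open) neutrophils, 1 point per library coloured by condition. For Chil3, Lcn2, Cd177, Cebpe and Serpinb1a all 4 immature values stand above all 4 mature values, and for Il1b, Cxcl2 and Cxcr4 all stand below. Of these, Cebpe and Serpinb1a reached the minimum for testing in immature neutrophils only, so their separation is a description.

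Levels also varied with the amount of granule transcript inside the class. The TAC-4w neutrophils, the one library with enough cells, were placed in bins of 0, 1 to 9, 10 to 49, 50 to under 200 and 200 or more UMIs of Ltf, Camp and Ngp, with 787, 230, 37, 35 and 114 cells. Members are the last 3 bins. The bins are a description, since the same genes chose the cells and depth rises along them. Chil3 was at 82.7, 328, 315, 903 and 6188 CPM along the bins, Cebpe at 5.24, 4.50, 21.0, 44.5 and 194 CPM and Cybb at 51.3, 141, 231, 371 and 1112 CPM. These genes were highest in the cells richest in granule transcripts. The ratio of the top bin to the bin of 10 to 49 UMIs was 19.7 (95% interval 16 to 24.5) for Chil3, 4.82 (95% interval 3.77 to 6.26) for Cybb and 9.24 (95% interval 4.20 to 25.4) for Cebpe. Lcn2 differed less between bins, at 1858, 3131, 8734, 12117 and 18107 CPM. Fcnb was at 0.698, 8.10, 0, 0 and 289.6 CPM, and it was not detected in the lower 2 bins of members. The bin of 1 to 9 UMIs included 1 barcode of neither class, which held all 9 Fcnb UMIs and 176 of the 364 Chil3 UMIs of that bin. Without it Fcnb was not detected there and Chil3 was at 173 CPM.

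Other genes peaked in the middle bins. Mmp8 was at 503, 1014, 3605, 3913 and 1778 CPM and Mmp9 at 673, 848, 1727, 1983 and 1235 CPM. Retnlg, for a resistin-like protein of neutrophils, was at 9335, 19259.5, 57133, 49934 and 14404 CPM, highest in the members with the fewest granule UMIs. From the bin of 10 to 49 UMIs to the top bin the ratio was 0.493 (95% interval 0.459 to 0.530) for Mmp8, 0.715 (95% interval 0.648 to 0.791) for Mmp9 and 0.252 (95% interval 0.247 to 0.257) for Retnlg. Il1b followed another course, at 15554, 12010.3, 4108, 3085 and 1071 CPM, and Cxcl2 was at 24885, 19695, 6975, 5615 and 1815 CPM. Both were lowest in the top bin and highest where no granule UMI was present. The cell cycle list summed to 1389, 1575, 1385, 1327 and 2860.2 CPM and was highest in the top bin. With every cell drawn down to 1000 UMIs the order of the 2 bins was the same for the ratios given, with Mmp9 at 0.890, other than for Cebpe, which had no UMI left in the lower of these bins. The other libraries had 1 to 3 cells in each middle bin, too few for such a comparison.

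**Figure D4:**
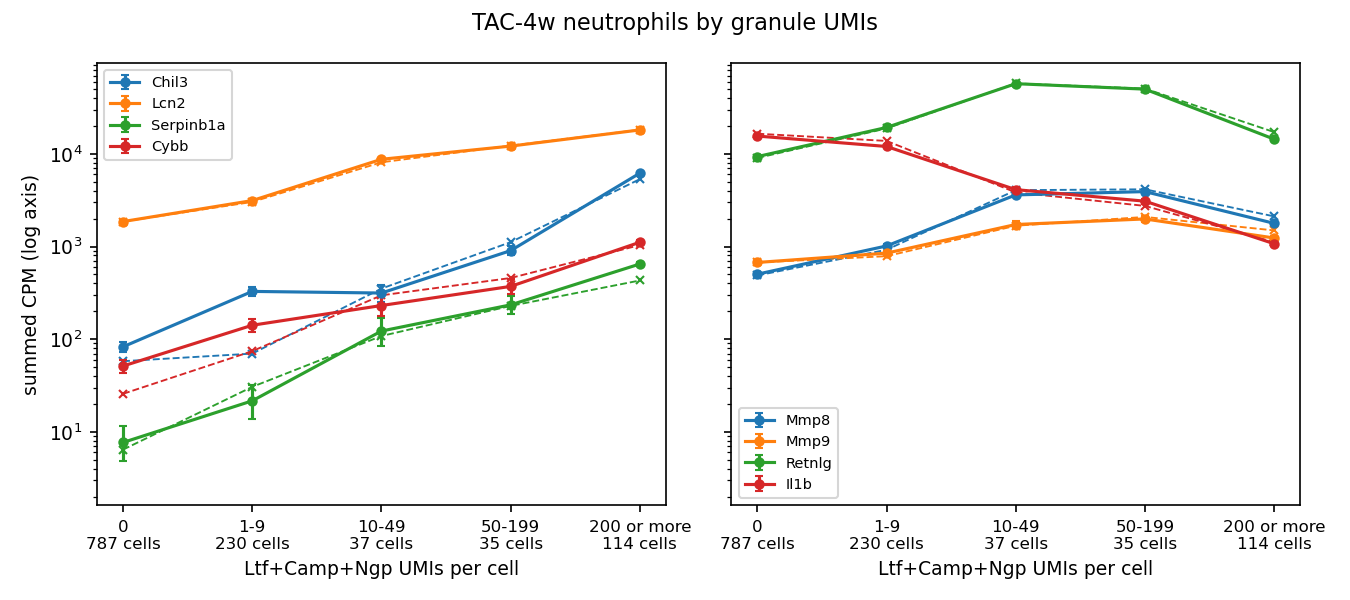
Summed CPM (log axis) of 8 genes in TAC-4w neutrophils by UMIs of Ltf, Camp and Ngp per cell, with exact Poisson 95% intervals; dashed lines and crosses give the values with each cell drawn down to 1000 UMIs. Chil3, Lcn2, Serpinb1a and Cybb climb to the top bin, Mmp8, Mmp9 and Retnlg peak between 10 and 200 UMIs, and Il1b declines throughout.

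Members of the 4 conditions were then set side by side. The secondary granule list summed to 26785, 31539, 29636 and 29323 CPM in members. TAC-4w stood at 1.11 (1.07 to 1.15) times sham and TAC-6w at 1.09 (1.05 to 1.15) times. Without mixed barcodes the sham level was 41313 CPM and both ratios turned below 1, at 0.719 (0.689 to 0.751) and 0.749 (0.712 to 0.789). The direction of this difference therefore rested on 4 barcodes of the sham library.

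The inflammatory list differed more. It summed to 1382, 4578, 6701 and 2364 CPM in members and 34236, 28636, 46813 and 32134 CPM in mature neutrophils. In members TAC-2w was at 3.31 (2.77 to 3.99) times sham, TAC-4w at 4.85 (4.15 to 5.70) times and TAC-6w at 1.71 (1.42 to 2.07) times. In mature neutrophils the same ratios were 0.836 (0.814 to 0.859), 1.37 (1.35 to 1.39) and 0.939 (0.916 to 0.962). Leaving mixed barcodes out made these mature ratios 0.876 (0.851 to 0.900), 1.21 (1.19 to 1.23) and 1.10 (1.08 to 1.13). The TAC-6w value for mature neutrophils thus turned from below to above sham. Without mixed barcodes the member ratios were 2.68 (2.14 to 3.41), 3.95 (3.21 to 4.92) and 1.33 (1.05 to 1.70). With cells drawn down to 1000 UMIs TAC-4w was at 2.98 and TAC-6w at 1.07 times sham, so that the TAC-6w difference was close to none. Il1b had the largest ratio of TAC-4w to sham of the 3171 genes that reached 50 UMIs in the TAC-4w or the sham sum, 40.9 (17.5 to 126), on 3938 and 5 UMIs. Without mixed barcodes it was 30.9 (10.6 to 150), on 3 sham UMIs, and genes with no sham UMI left have no such ratio, so the order no longer held. In TAC-6w Il1b was at 3.93 times sham (1.50 to 13). Members with 200 or more granule UMIs made up 80%, 44.4%, 61.3% and 89.3% of the members. Within them the list summed to 1245, 4448, 4255 and 2184 CPM, TAC-2w at 3.57 (2.89 to 4.45), TAC-4w at 3.42 (2.85 to 4.13) and TAC-6w at 1.75 (1.42 to 2.18) times sham. Without mixed barcodes these ratios were 2.89 (2.24 to 3.77), 2.78 (2.21 to 3.55) and 1.43 (1.11 to 1.87). Cells other than neutrophils held more neutrophil transcripts in TAC-4w, as given above, and the part of free RNA in these levels was not tested.

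The next genes in that order rested on single sham UMIs. Cstdc4, a gene of the cystatin family, was at 26.5 (4.73 to 1047) times sham, Spp1, for osteopontin, at 18.2 (3.25 to 721) and Nlrp3 at 14.6 (2.60 to 579.9). Sh2d3c, for a signalling adaptor, was at 10.4 (1.84 to 412). Without mixed barcodes Spp1 was at 8.23 (1.47 to 326) and Sh2d3c at 4.71 (0.835 to 187), an interval that included 1, and no sham UMI of Cstdc4 or Nlrp3 was left. At the other end stood Dcn, Bgn, Mfap5, Serping1 and Dpep1, of which Dcn, for the matrix proteoglycan decorin, had 503 UMIs in sham members and 19 in TAC-4w. Only 7 of those 503 UMIs were left without the mixed barcodes, and none of the UMIs of the other 4 genes.

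Between TAC-6w and sham, which share a batch label, 364 genes reached 50 UMIs in 1 of the sums. Fosl1, for the AP-1 subunit Fra-1, was at 69.1, 57.3, 264 and 679 CPM in members and 14.6, 46.3, 69.4 and 63.7 CPM in mature neutrophils. Its TAC-6w level in members was 9.82 (4.82 to 23.3) times that of sham, and 6.20 (2.76 to 17.3) without mixed barcodes. Krt81, for a hair keratin, was at 39.3 (6.78 to 1579) on 58 UMIs against 1. Phlda1 was at 6.10 (2.79 to 15.8), Acpp, for prostatic acid phosphatase, at 5.32 (2.42 to 13.9) and Rgs2, for a regulator of G protein signalling, at 3.70 (2.12 to 6.92). Without mixed barcodes these ratios were 19.1 (3.30 to 769) for Krt81, 4.87 (1.80 to 18.5) for Phlda1, 4.44 (1.63 to 16.9) for Acpp and 2.22 (1.20 to 4.48) for Rgs2. The 5 smallest ratios belonged to the MHC class II genes H2-Aa, H2-Ab1 and H2-Eb1, to Cd74 and to Ccdc80. Without mixed barcodes at most 1 sham UMI of each was left.

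The sections gave a second readout of the granule genes in other tissue of the same conditions. A section covers whole tissue, and fewer neutrophils and less transcript per neutrophil cannot be told apart in it. Ltf had 13, 8, 28 and 17 UMIs, Camp 8, 4, 36 and 15, and Ngp 12, 6, 59 and 12, out of 25996378, 48754396, 31942372 and 48288659 UMIs. Together they stood at 1.27, 0.369, 3.85 and 0.911 CPM. By gene TAC-4w was at 1.75 (0.879 to 3.69) times sham for Ltf, an interval that included 1, 3.66 (1.67 to 9.12) for Camp and 4.00 (2.13 to 8.18) for Ngp. For the sum TAC-4w was at 3.03 (2.05 to 4.60) times sham, TAC-2w at 0.291 (0.154 to 0.532) and TAC-6w at 0.718 (0.447 to 1.16). The TAC-4w section was therefore the highest, as the TAC-4w library was, while TAC-2w was below sham. For TAC-6w the readouts differed. Its share of kept cells was 4.13 times that of sham (1.95 to 9.53), whereas its section was not above sham.

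Spots with at least 1 UMI of the 3 genes were few, 22 of 1676 in sham (1.31%), 10 of 2063 in TAC-2w (0.485%), 56 of 1228 in TAC-4w (4.56%) and 21 of 2193 in TAC-6w (0.958%). A spot is a small area that can cover several cells. The spot with the most held 8, 7, 29 and 22 UMIs, which was 50% of the UMIs in TAC-6w. Leaving out the highest spot of each section lowered the TAC-6w ratio to 0.474. Spots with these genes were also richer in S100a8 and S100a9, at 104, 108, 353 and 496 CPM, against 24.1, 4.62, 60.1 and 7.88 CPM in the remaining spots. Without the highest spot of each section they were at 67.9, 69.9, 289 and 96.3 CPM, and that spot held 83.2% of their S100a8 and S100a9 UMIs in TAC-6w. Transcripts of blood also differed between these spots and the remaining ones. Haemoglobin genes were at 5742, 34056, 5484 and 5266 CPM in spots with granule UMIs and 10574, 13647, 3854 and 7643 CPM in the others, higher in TAC-2w and TAC-4w and lower in sham and TAC-6w. Platelet markers were at 38.0, 113, 53.2 and 54.5 CPM against 31.0, 37.7, 39.6 and 42.1 CPM. The part of blood in the section values was not tested. At least 2 of the 3 genes were found together in 3, 1, 14 and 3 spots.

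Some related genes gave the same order for TAC-4w. Cxcr2 did not, with TAC-4w at 0.995 (0.375 to 2.72) times sham. For Il1b the ratio was 1.83 (0.758 to 4.87), an interval that included 1. Lcn2, which other heart cells can also transcribe, was at 10.1, 3.96, 55.9 and 6.69 CPM in the sections, and TAC-4w stood at 5.55 (4.87 to 6.34) times sham. Chil3 was at 0.115, 0.226, 4.01 and 0.331 CPM, with TAC-4w at 34.7 (11.6 to 171) times sham on 3 sham UMIs. S100a8 and S100a9 together were at 25.3, 5.09, 75.9 and 13.4 CPM. For Lcn2, for Chil3 and for this sum TAC-4w was the highest section. The batch labels of sections and conditions cannot be told apart except for sham and TAC-2w, which share batch 1.

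**Figure D5:**
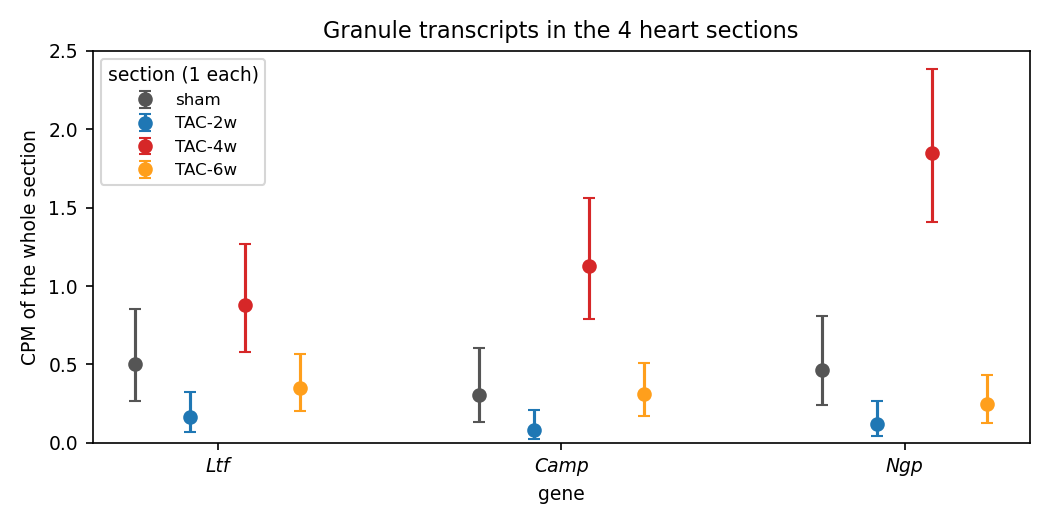
CPM of Ltf, Camp and Ngp over each whole heart section, 1 section per condition, with exact Poisson 95% intervals. TAC-4w has the highest value for each gene, for Ltf within counting error of sham, and TAC-2w the lowest, with the 3 genes together at 3.85 and 0.369 CPM.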

How the data were processed

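The authors processed droplet single-cell reads with Cell Ranger and section reads with Space Ranger against mm10 and deposited UMI counts per gene and barcode or spot, not normalised. Per the labels the versions were 7.0.0 and 1.3.1, and per the file headers 6.0.0 and 1.2.0. Deposited counts were used as they stand, and library totals ran from 28793316 to 86671674 UMIs. Cells were filtered on 200 to 6000 genes, 500 to 30000 UMIs and under 15% mitochondrial UMIs. Doublets were scored with Scrublet (scanpy 1.11.5) but kept, and each cell was thinned to 1000 UMIs only where stated.

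Members, gene lists and tests were chosen with earlier results of these data known. Counts were summed per library and class and tested with edgeR 4.0.16 in R 4.3.3 (filterByExpr, TMM, library as block, Benjamini-Hochberg adjustment), with DESeq2 1.42.0 as an alternative. Both classes of a library come from the same cell preparation, which is where the pairing comes from. Replicates are single libraries per condition, so p-values measure the spread over 4 libraries. Genes named were the 12 largest and 12 smallest log2 fold changes among called genes with at least 50 UMIs and 1 sign in all libraries, the 5 largest and smallest condition ratios, and list genes. CPM are relative to the summed UMIs of the cells concerned. Shares have Clopper-Pearson intervals, counts Poisson intervals and ratios conditional binomial intervals, at 95%. On simulated counts with known changes, 98.0% of tested genes raised by 2 on the log2 scale were called, 90.9% of those lowered by 2, 26.5% raised by 1 and 20.6% lowered by 1. Of 50 genes each, 50, 33, 49 and 34 were tested. The simulation used a single dispersion, libraries that differed only in depth and changes in well-counted genes only. The share called can therefore be lower in the real data. Promoter sequences came from a RefSeq table, and no protein table or whole genome was used here. Some genes of the lists are not reported here.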

Additional observations from a re-analysis of the deposited data

Results flagged for a closer look

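In the TAC-4w library 27 barcodes met both UMI sums of the rule but carried Cd79a, the B cell receptor component, and were therefore not members. There were 0 such barcodes in sham, 0 in TAC-2w and 1 in TAC-6w, which is why they stood out. Kept cells with a Cd79a UMI numbered 285 in sham, 189 in TAC-2w, 2803 in TAC-4w and 963 in TAC-6w. The 27 had a median of 11787 UMIs, 266 granule UMIs and 3096 UMIs of S100a8 and S100a9. A single Cd79a UMI was found in 11 of them and 3 or more in 13, and 1 was among the highest doublet scores.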

How the results depend on the processing

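Of 180 alternative values for shares, counts of genes, lists and ratios, 145 stayed within the error or within 1.5 times of the value given. The TAC-4w share of kept cells was 2.27% with cells thinned to 1000 UMIs, 2.38% without cell filters and 5.19% with mitochondrial shares under 5%, and its share of neutrophils was 12.2% when thinned. Genes higher and lower in members numbered 498 and 1165 without a filter on low counts, and 166 and 303 with cells thinned to 1000 UMIs, where fewer genes were tested and 5 secondary granule genes were higher. Genes higher numbered 495 without mixed barcodes and 492 without the rule genes. Leaving out 1 library gave 112 to 418 genes higher and 189 to 603 lower, the lowest without TAC-4w, and 3 to 5 NADPH oxidase genes higher. DESeq2 called 346 higher and 470 lower. Without the replicate block, which ignores the pairing of both classes within a library, 253 were higher and 441 lower, and Hbb-bs was the 1 gene named by its fold change that was no longer called. The other alternative values of such genes, 283 of 284, kept their call. Of 60 called list genes 0 changed sign and 20 lost their call under at least 1 alternative.

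The secondary granule list of members in TAC-4w over sham was 1.01 by the mean of each cell, 1.27 without mitochondrial, rRNA-like and rule genes in the total, 1.03 thinned and 0.719 without mixed barcodes, and in TAC-6w over sham 1.03, 1.32, 1.04 and 0.749. The inflammatory list was 2.98 thinned and 3.95 without mixed barcodes in TAC-4w, and 1.07 and 1.33 in TAC-6w. In members with 200 or more granule UMIs, an alternative chosen after seeing the data, as was leaving out mixed barcodes, rule genes or the highest spots, the inflammatory list was 3.42 in TAC-4w and the secondary granule list 1.03 in TAC-6w, and sham held no Il1b UMI. With cells thinned, the ratio of the top bin to 10 to 49 granule UMIs was 15.2 for Chil3, 2.24 for Lcn2, 3.48 for Cybb, 0.890 for Mmp9, 0.298 for Retnlg, 0.290 for Il1b and 0.326 for Cxcl2. Thinning left no sham UMI of Il1b and no Cebpe at 10 to 49 UMIs, so those ratios have no value. The sham and TAC-2w libraries held 10 and 9 members, which limits every value for them.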
